A study of Mus musculus with 3 samples.

Results

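A set of 10 genes that cells switch on in response to interferon was followed through the non-cardiomyocytes of the mouse ventricle under pressure overload. They were the 3 IFIT genes Ifit1, Ifit2 and Ifit3, the genes Isg15, Irf7, Oasl2, Rsad2 and Usp18, and the membrane proteins Ifitm3 and Bst2, and they were taken as a list of names, with no measured value in the rule. All 10 of them are among the 27998 genes of the deposited tables. The 8 without Ifitm3 and Bst2 are called the core members here. The libraries held non-cardiomyocytes from the ventricles, with the atria removed, of wild-type C57BL/6JJcl male mice, in which transverse aortic constriction (TAC) at 8 weeks of age narrowed the aorta and loaded the left ventricle. A library each was made at 0 weeks from the healthy heart (labelled Control), at 2 weeks of TAC (adaptive hypertrophy) and at 12 weeks of TAC (heart failure). No sham-operated library was among them, and how many hearts went into a library is not given in the sources used here. Cells had been digested with collagenase, enriched on Percoll and preserved with CellCover before droplet capture, and counts are unique molecular identifiers (UMIs) read from the 3′ ends of transcripts. With 1 library per phase, a difference between phases cannot be told apart from a difference between these 3 preparations, no p-value is given, and each interval is a 95% interval for counting error only.

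Type I interferons bind a receptor on nearly all nucleated cells, and the signal runs through the kinases Jak1 and Tyk2 to transcription factors that bind interferon-stimulated response elements in promoters. The genes so induced restrict viruses at several steps. IFIT proteins bind foreign RNA, Rsad2 (viperin) makes a chain-terminating nucleotide, Oasl2 belongs to the oligoadenylate synthetase family, Ifitm3 blocks fusion of virus with endosomes and Bst2 (tetherin) holds budding particles at the membrane. Isg15 is a ubiquitin-like protein that is attached to other proteins, Usp18 removes it and also damps the receptor, and Irf7 is the transcription factor that amplifies the response. Endothelial cells (ECs) and macrophages are known to hold some of these transcripts in the absence of infection.

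Each cell was put in the class whose marker genes gave the largest sum of UMIs. In the libraries at 0, 2 and 12 weeks this gave 1085, 1729 and 300 ECs, 1263, 99 and 194 fibroblasts (FBs), 374, 70 and 36 mural cells, 854, 116 and 60 macrophages, and 29, 0 and 65 B cells. As a description of the gated cells, since these genes were in the sums, a UMI was found of Cdh5 in 81.1% of ECs and 7.42% of the other gated cells, Dcn in 99.5% of FBs and 24.7% of the others, Rgs5 in 89.4% and 7.74% for mural cells, and C1qb in 95% and 5.66% for macrophages. Other markers were found in fewer cells, such as Kcnj8 in 11.5% and Abcc9 in 13.1% of mural cells. The libraries differed in depth, with a median of 2589, 1495 and 1434 UMIs per cell, so shares of cells with a transcript were taken after each cell had been thinned to 1000 UMIs, which left out no healthy EC but 432 and 100 ECs of the TAC libraries. The share of cells with over 10% mitochondrial UMIs was 5.04%, 9.32% and 17.2%. Levels are given in CPM, the UMIs of a gene relative to all UMIs of a class, on the scale where 10000 CPM are 1% of them. Since reads came from the 3′ ends, CPM carries no length term and was compared between genes as it stands. Ifit3 has a near-identical copy, Ifit3b, and Ifitm3 and Oasl2 have close relatives, so that the split of UMIs within these pairs is uncertain.

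The promoters of the members are shown first, since several of these genes move together from cell to cell. RefSeq promoter windows on GRCm38.p6 were at hand for 9 of the 10 genes, Usp18 being the exception. The 250 bases before each start were searched on both strands for the core of the interferon-stimulated response element, GAAANNGAAA. It occurred in the windows of Ifit1, Ifit3, Isg15, Rsad2 and Bst2, which is 5 of 9, and in 3.46% of all 27025 genes with a window. Neither window of Ifit2 held these letters, nor did those of Irf7, Oasl2 and Ifitm3. The 160 bases before the start of the 5 genes are given 5′ to 3′ on the strand of the gene, with each match in capitals. Runs of TTTC in capitals are matches on the opposite strand.
Ifit1, chr19:34640729-34640888, plus strand: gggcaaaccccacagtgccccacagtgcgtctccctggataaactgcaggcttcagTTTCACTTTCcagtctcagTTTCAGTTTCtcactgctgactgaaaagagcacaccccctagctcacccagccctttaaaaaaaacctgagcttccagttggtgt
Ifit3, chr19:34583369-34583528, plus strand: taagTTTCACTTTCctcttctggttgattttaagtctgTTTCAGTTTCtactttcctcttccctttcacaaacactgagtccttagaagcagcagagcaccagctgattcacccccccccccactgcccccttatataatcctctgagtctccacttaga
Isg15, chr4:156200819-156200978, minus strand: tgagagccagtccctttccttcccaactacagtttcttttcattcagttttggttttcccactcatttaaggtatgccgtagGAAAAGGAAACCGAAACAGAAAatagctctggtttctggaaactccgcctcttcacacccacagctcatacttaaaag
Rsad2, chr12:26456453-26456612, minus strand: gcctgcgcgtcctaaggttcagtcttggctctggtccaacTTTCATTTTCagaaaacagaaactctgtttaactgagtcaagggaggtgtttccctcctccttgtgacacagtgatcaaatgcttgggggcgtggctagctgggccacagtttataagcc
Bst2, chr8:71537473-71537632, minus strand: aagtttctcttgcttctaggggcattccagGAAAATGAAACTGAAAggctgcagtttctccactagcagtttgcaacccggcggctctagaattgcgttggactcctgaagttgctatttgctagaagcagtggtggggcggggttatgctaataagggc
In Ifit1 the pair of matches lay 104 to 95 and 85 to 76 bases before the start, and in Ifit3 a pair with the same letters lay 156 to 147 and 122 to 113 bases before it. The 3 matches of Isg15 overlap in a single run 78 to 57 bases before the start, and the pair of Bst2 overlaps likewise, at 130 to 115 bases. Rsad2 had 1 match, at 120 to 111 bases. Ifit1, Ifit2 and Ifit3 lie close together on chromosome 19, where the GENCODE genes run from 34550694 (the start of Ifit2) to 34650009 (the end of Ifit1), all on the plus strand. The other members lie on chromosomes 4 (Isg15), 5 (Oasl2), 6 (Usp18), 7 (Irf7 and Ifitm3), 8 (Bst2) and 12 (Rsad2). A match is a description of these letters and not of binding.

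The core members were highest in ECs. In the healthy library the 8 core members together reached 919 CPM in ECs (95% interval 887 to 953), 445 CPM in mural cells (411 to 481), 155 CPM in FBs (144 to 168) and 133 CPM in macrophages (119 to 148). The level in ECs was 5.92-fold that in FBs (5.44 to 6.46), 6.92-fold that in macrophages (6.17 to 7.78) and 2.07-fold that in mural cells (1.90 to 2.26). B cells held 2 UMIs of the core members at 0 weeks and 4 at 12 weeks. Transcripts of the EC markers were found at low level in the other classes, and the sum of the 8 EC markers was 21.4-fold higher in ECs than in FBs, 47.6-fold higher than in macrophages and 3.80-fold higher than in mural cells. These markers also set the classes, so their ratios are partly built in, whereas no member was a gate marker.

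Single members differed in how far ECs stood above the other classes. Rsad2 stood at 219 CPM in healthy ECs and 5.50 CPM in FBs, a ratio of 39.8 (26.3 to 63.3) that was larger than that of the EC markers. In macrophages it was at 13.1 CPM and in mural cells at 53.5 CPM. The mural ratio of Rsad2, 4.10 (3.23 to 5.28), overlapped that of the EC markers, which is 3.80 (3.63 to 3.98). Of the 75 Rsad2 UMIs of healthy mural cells, 25 lay in 1 cell, and without that cell the level was 35.7 CPM and the ratio 6.14 (4.60 to 8.35), above that of the EC markers. Isg15 was the most abundant core member in each of these 4 healthy classes, at 410 CPM in ECs, 292 CPM in mural cells, 52.4 CPM in FBs and 51.4 CPM in macrophages. Its ratio of ECs over mural cells was only 1.40 (1.26 to 1.57), well under that of the EC markers. Ifit3 was nearly level between ECs and FBs, at 30.3 CPM in ECs and 28.0 CPM in FBs (ratio 1.08, 0.82 to 1.43), whereas Ifit1 stood at 81.0 and 14.6 CPM (ratio 5.55, 4.19 to 7.46).

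Ifitm3 and Bst2 were held by all 4 classes. Ifitm3 was at 2439 CPM in healthy ECs, 1224 in FBs, 1018 in mural cells and 1235 in macrophages, and B cells had 1 UMI (21.7 CPM). After thinning, an Ifitm3 UMI was found in 87.6% of healthy ECs, 64.8% of FBs, 56.7% of mural cells and 57% of macrophages, against 3.45% of B cells (1 of 29), a class in which this gene is low. Bst2 was at 547 CPM in ECs, 146 in FBs, 135 in mural cells and 221 in macrophages. The order of the 10 genes in healthy ECs ran from Ifitm3 through Bst2, Isg15 and Rsad2 to Ifit1, Irf7, Oasl2, Usp18, Ifit3 and Ifit2. The intervals of neighbours overlapped from Irf7 (51.0 to 68.1) and Oasl2 (44.4 to 60.4) downwards, and did not overlap above them.

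**Figure D1:**
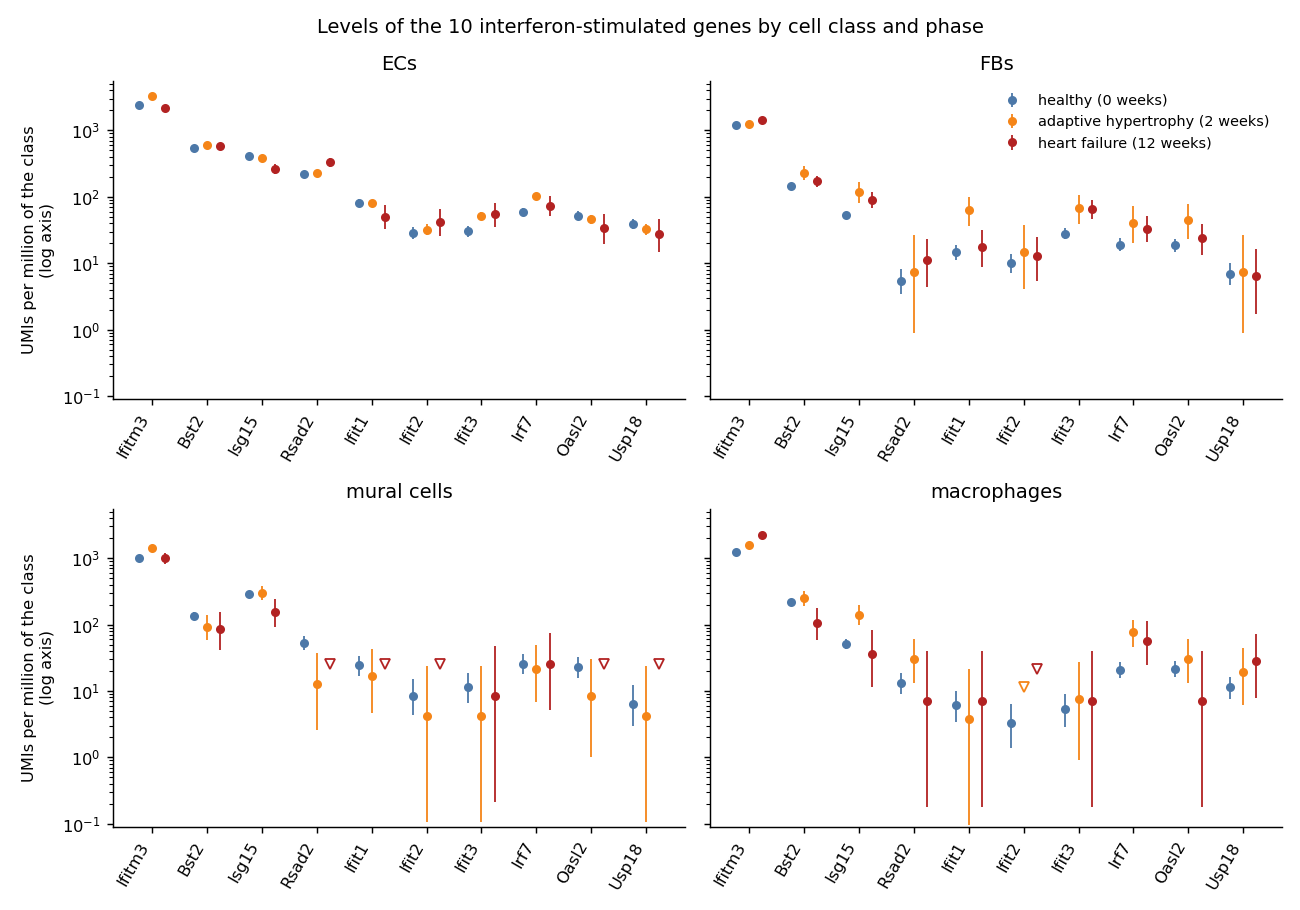
Level of each member in CPM (log axis) in ECs, FBs, mural cells and macrophages at 0, 2 and 12 weeks, 1 library per phase. Bars are exact 95% Poisson intervals and open triangles mark the limit that a count of 0 allows. Ifitm3 is highest in every class, and Rsad2 stands far higher in ECs than in FBs.

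Over all ECs the ratio of the summed core members to the healthy library had an interval that included 1 at both times, while the vessel types, given further on, differed at 12 weeks. The sum was 919, 961 and 880 CPM at 0, 2 and 12 weeks, ratios to healthy of 1.05 (0.99 to 1.10) and 0.96 (0.86 to 1.06). None of the 10 members passed 2-fold in either direction at 2 weeks, where 3.19% of all genes tested in ECs were higher and 5.11% lower by that rule, nor at 12 weeks, where 7.95% were higher and 7.81% lower. Their median log2 ratio was 0.11 at 2 weeks and -0.04 at 12 weeks, beside 0.01 and 0.09 over all genes tested. A gene counted as past the fold when its CPM ratio, with 1 CPM added to both levels, reached 2 or 0.5 among genes with at least 20 UMIs.

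Within this sum, single members differed in opposite directions, by less than 2-fold. Isg15 was at 410 CPM in the healthy library, 385 at 2 weeks and 267 at 12 weeks, a 12-week ratio of 0.65 (0.54 to 0.78). Rsad2 was at 219, 231 and 332 CPM, with the highest value at 12 weeks, a ratio of 1.51 (1.27 to 1.80). Without Isg15 the 12-week ratio of the sum became 1.20, and without Rsad2 it became 0.78. Ifit1 was also lower at 12 weeks, at 81.0, 80.1 and 50.4 CPM (0.62, 0.39 to 0.95). In the ECs of that library the markers of erythroid cells summed to 7091 CPM, against 98.0 and 312 CPM at 0 and 2 weeks, and the genes of dissociation stress to 13282 CPM, against 19620 and 14877 CPM. Their part in these results was not tested.

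Irf7, the amplifier of the response, was at 59.1, 103 and 73.5 CPM, and its highest value lay at 2 weeks (ratio 1.74, 1.45 to 2.09). Ifit3 was at 30.3, 51.5 and 54.6 CPM, above healthy in both TAC libraries (1.70, 1.32 to 2.20, and 1.80, 1.12 to 2.80). Ifitm3 was at 2439, 3288 and 2165 CPM, higher at 2 weeks (1.35, 1.31 to 1.39) and slightly lower at 12 weeks (0.89, 0.83 to 0.95). Bst2 was at 547, 604 and 584 CPM (1.10, 1.04 to 1.18, and 1.07, 0.94 to 1.21). For Ifit2 (28.8, 32.1 and 42.0 CPM), Oasl2 (52.0, 46.1 and 33.6 CPM) and Usp18 (39.0, 32.7 and 27.3 CPM), the intervals of both ratios included 1.

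Fibroblasts had low levels in health and higher ones in both TAC libraries. The summed core members were at 155 CPM in the healthy library, 364 at 2 weeks and 261 at 12 weeks, ratios of 2.34 (1.87 to 2.90) and 1.68 (1.41 to 1.99). At 2 weeks 5 of the 10 members were past 2-fold upwards and none downwards, beside 8.75% of all genes tested higher and 12.4% lower, and their median log2 ratio was 0.85, beside -0.01 over all genes. They were Ifit1, Ifit3, Isg15, Irf7 and Oasl2. Ifit1 showed the largest ratio, at 14.6 CPM in healthy FBs and 63.1 CPM at 2 weeks (4.32, 2.37 to 7.50), and was back at 17.5 CPM at 12 weeks. Isg15 was at 52.4, 119 and 90.6 CPM, with a 2-week ratio of 2.27 (1.51 to 3.29).

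Ifit3 was the only member past 2-fold in FBs at 12 weeks, at 28.0, 66.8 and 65.1 CPM (12-week ratio 2.33, 1.59 to 3.35), beside 5.68% of genes higher and 6.25% lower. Oasl2 was at 18.7, 44.5 and 23.8 CPM and Irf7 at 19.1, 40.8 and 33.4 CPM, with 2-week ratios of 2.39 (1.18 to 4.41) and 2.13 (1.02 to 4.02). Rsad2 was low in FBs, at 5.50, 7.42 and 11.1 CPM, while ECs of the same libraries held 219 to 332 CPM. The sum of the 8 EC markers in FBs was 256, 327 and 253 CPM, also highest at 2 weeks, and its part in the result was not tested. Ifit2 (10.1, 14.8 and 12.7 CPM) and Usp18 (6.94, 7.42 and 6.36 CPM) were low in all 3 libraries, Bst2 was at 146, 230 and 173 CPM and Ifitm3 at 1224, 1228 and 1454 CPM.

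The FB values at 2 weeks rest on 98 core UMIs from 99 cells. Cells that held 3 or more core members carried 62.2% of them, against 36.8% in the healthy library and 60.4% at 12 weeks. Left out, these cells took the 2-week ratio from 2.34 to 1.49 (1.04 to 2.09) and the 12-week ratio from 1.68 to 1.13 (0.85 to 1.46). Gated on Pdgfra, Col1a1 and Tcf21 alone, FBs gave a 12-week ratio of 1.22 (0.96 to 1.53). Median mitochondrial share in FBs was 2.62%, 7.59% and 4.74%, and its part in the result was not tested.

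Macrophages, too, had more of the core members at 2 weeks. Their sum was 133 CPM in the healthy library, 308 at 2 weeks and 149 at 12 weeks, ratios of 2.32 (1.79 to 2.97) and 1.12 (0.68 to 1.74). Of the 10 members, 7 had enough UMIs to be tested and 3 were past 2-fold upwards at 2 weeks, beside 9.57% of all genes tested higher and 12.9% lower. Irf7 was at 20.8, 76.1 and 56.7 CPM (2-week ratio 3.66, 2.07 to 6.25), Isg15 at 51.4, 141 and 35.4 CPM (2.74, 1.85 to 3.98) and Rsad2 at 13.1, 30.4 and 7.08 CPM (2.33, 0.93 to 5.17). The ratio of the sum was 2.20 (1.61 to 2.95) without cells holding 3 or more core members, nearly as large as with them. The EC markers in macrophages summed to 115, 179 and 191 CPM, and markers of capillary ECs to 358, 1199 and 808 CPM. The part of these EC transcripts in the result was not tested.

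In heart failure the macrophage members past 2-fold lay in both directions, on few UMIs. At 12 weeks Irf7, Usp18, Oasl2 and Bst2 rested on 8, 4, 1 and 15 UMIs. Irf7 and Usp18 (11.4, 19.0 and 28.3 CPM) were past 2-fold upwards and Oasl2 (21.6, 30.4 and 7.08 CPM) and Bst2 (221, 247 and 106 CPM) downwards, beside 10.9% of genes higher and 15% lower, from 60 cells. The 12-week ratio of Bst2 was 0.48 (0.27 to 0.80), and those of Usp18 and Oasl2 had intervals that included 1. Ifitm3 was highest in that library, at 1235, 1564 and 2246 CPM (ratio 1.82, 1.61 to 2.04), but a few cells weighed on that value. Without the cell with the most Ifitm3 UMIs in each library the ratio was 1.55 (1.36 to 1.77), and as a mean over cells of counts per 10000 UMIs it was 1.21. The IFIT genes held between 0 and 15 UMIs per library in macrophages. The 8 monocyte markers summed to 165, 1461 and 1502 CPM in this class, higher in both TAC libraries, while the core sum was higher at 2 weeks alone. Their part in the result was not tested.

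Mural cells showed an Isg15-dominated pattern. Isg15 was at 292, 299 and 153 CPM, from 410, 71 and 18 UMIs, while Rsad2 was at 53.5 and 12.6 CPM and was not found among the 117868 UMIs of heart failure, where a count of 0 still permits a level of 25.5 CPM. The summed core members were at 445, 371 and 187 CPM, ratios of 0.83 (0.66 to 1.04) and 0.42 (0.26 to 0.64). The EC markers in mural cells summed to 1440, 1855 and 993 CPM, lowest at 12 weeks as well, and their part in the result was not tested. With mural cells gated on Myh11, Tagln and Acta2 instead, the 12-week ratio was 0.96 (0.70 to 1.29), so the lower value depended on the gate, and without Isg15 the main ratios were 0.47 and 0.22. Ifit1 was at 24.2 and 16.9 CPM and then at 0 UMIs, as were Ifit2, Oasl2 and Usp18 at 12 weeks. Ifit3 (11.4, 4.22 and 8.48 CPM) and Irf7 (25.7, 21.1 and 25.5 CPM) rested on 1 to 36 UMIs, and Bst2 was at 135, 92.7 and 84.8 CPM. Of the 10 members 7 could be tested in mural cells, and none was past 2-fold upwards. Oasl2 and Rsad2 were past it downwards at 2 weeks, beside 5.12% of all genes tested higher and 10.9% lower, and Ifit1, Oasl2 and Rsad2 at 12 weeks, beside 8.23% higher and 20% lower. The median log2 ratio of the 7 was -0.50 at 2 weeks and -0.93 at 12 weeks, beside 0.01 and -0.07 over all genes. The 3 genes named for 12 weeks had no UMI there, and the limit of 25.5 CPM is under the healthy level of Rsad2 alone. Ifitm3 in mural cells was at 1018, 1425 and 1001 CPM (2-week ratio 1.40, 1.24 to 1.58).

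**Figure D2:**
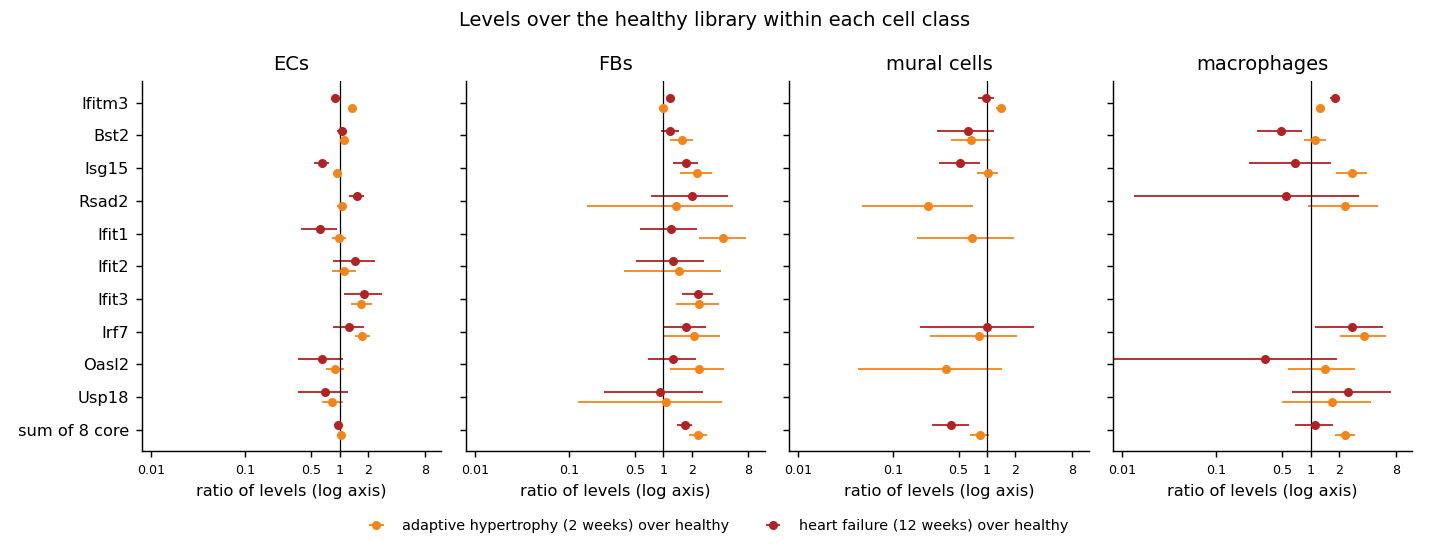
Ratio of each member's level at 2 and 12 weeks to the healthy library (log axis) in 4 classes, with exact 95% intervals, for members with at least 20 UMIs over both libraries and none at 0. In ECs the sum of the core members lies near 1 with Isg15 below and Rsad2 above it at 12 weeks, and in FBs and macrophages the 2-week points lie mostly to the right of 1.

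The next question was whether the members are found together in a minority of cells or spread over a class. At 1000 UMIs per cell, 47.2% of healthy ECs held at least 1 of the 8 core members, as did 46.9% at 2 weeks and 41.5% at 12 weeks. At least 3 of them were found in 60 of 1085 ECs (5.53%, 4.25 to 7.06), 68 of 1297 (5.24%, 4.09 to 6.60) and 4 of 200 (2.00%, 0.55 to 5.04). These are called interferon-high cells. Among healthy FBs they made up 7 of 1263 (0.55%), at 2 weeks 4 of 71 (5.63%, 1.56 to 13.8) and at 12 weeks 3 of 165 (1.82%). In healthy mural cells there were 5 of 374 (1.34%) and in healthy macrophages 4 of 854 (0.47%). After TAC there were none among 56 and 28 mural cells or 90 and 39 macrophages, which for the larger of these sets allows up to 3.33%.

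**Figure D3:**
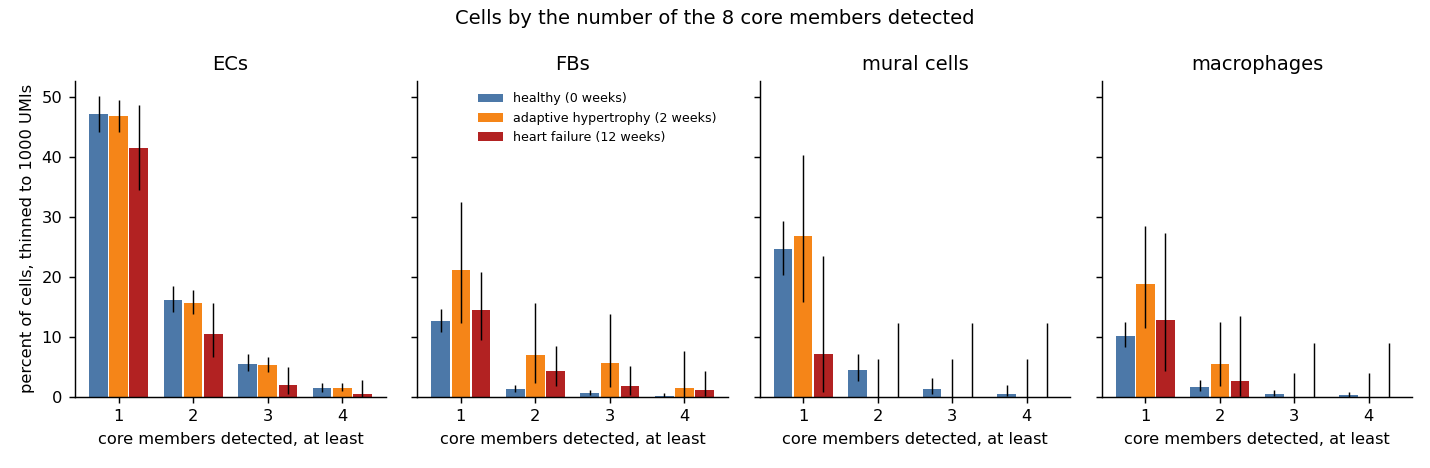
Percent of cells, each thinned to 1000 UMIs, with at least 1, 2, 3 or 4 of the 8 core members, by class and phase, with exact 95% binomial intervals. ECs hold core members in 41.5% to 47.2% of cells, and at least 3 of them in 2.00% to 5.53%.

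In ECs each core member was found more often beside other core members than without them, with exceptions at 12 weeks. In healthy ECs, Ifit1 was detected in 23.0% of the 148 cells that held at least 2 other core members (16.5 to 30.6) and in 2.05% of the 585 cells that held none (1.06 to 3.56). Usp18 was detected in 11.2% and 1.55%, Ifit3 in 8.72% and 0.87%, Oasl2 in 8.97% and 2.39%, Irf7 in 8.39% and 3.54% and Ifit2 in 7.06% and 1.88% of such cells. All 8 members followed this order, and for 7 of them, Irf7 excepted, the intervals did not overlap. The order was not particular to ECs. It held for 8 of 8 members in healthy FBs and 7 of 8 in healthy mural cells and macrophages. The median ratio of the shares there was 14.7, 14.3 and 14.1, against 3.76 in healthy ECs. Those classes held 5 to 16 cells with at least 2 others. After TAC the order held for 6 and 7 of 8 members in FBs. In mural cells it could not be read, since they held 0 such cells. Macrophages held 0 to 5 such cells at 2 weeks and 0 to 1 at 12 weeks, too few to read it. In unthinned macrophages the order held for 6 and 4 of 8 members, from 8 to 12 and 1 to 2 such cells. In unthinned mural cells it held for 3 and 0 of 8, from 1 to 7 and 0 to 2 such cells.

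Isg15 and Rsad2 were also common in ECs with no other core member. Isg15 was detected in 63.2% of healthy ECs with at least 2 others but still in 21.4% of those with none, and Rsad2 in 32.8% and 15.9%. In FBs at the same depth Rsad2 was detected in 0.40% of cells, far under its share in ECs without other core members. Ifitm3 (93.2% and 85.7%) and Bst2 (54.0% and 35.1%), which do not enter the count of core members, were also found more often beside them.

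The 2-week library repeated this pattern, with all 8 members in the same order and 6 with intervals apart, among them Ifit2 (10.6% and 0.43%), Ifit3 (14.4% and 1.71%) and Irf7 (18.3% and 4.70%). In heart failure only 11 to 21 ECs held at least 2 others, 6 of 8 members followed the order, no interval was apart, and Oasl2 and Usp18 had no UMI in them. Unthinned, 35 to 57 ECs of that library held at least 2 others, all 8 members followed the order and 4 had intervals apart.

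**Figure D4:**
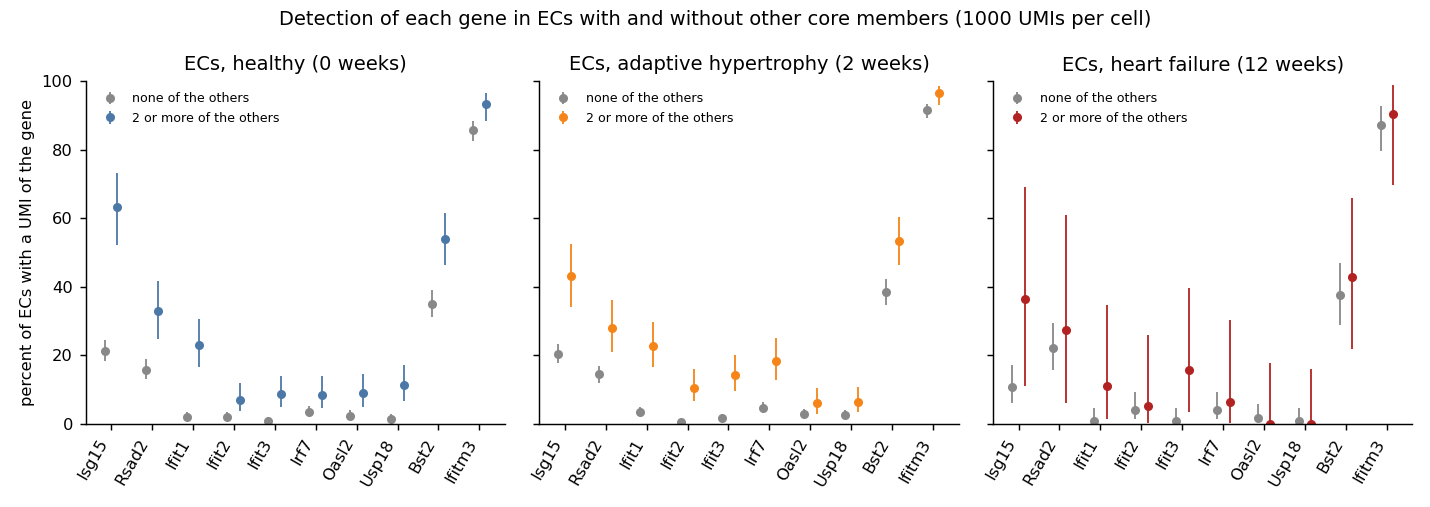
Percent of ECs with a UMI of each gene among cells with none of the other core members (grey) and with 2 or more of them (coloured), at 1000 UMIs per cell, with exact 95% binomial intervals, by phase. In the healthy and 2-week libraries each coloured point lies above its grey partner, with Ifit1 at 23.0% and 2.05% in the healthy library.

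The spread of counts over ECs was measured by the Fano factor. This is the variance over the mean of UMIs per thinned cell and is 1 for Poisson counting. It was 1.97, 1.497 and 1.72 for Ifit1, 1.74, 1.90 and 2.04 for Isg15, 1.55, 1.60 and 1.85 for Ifit3 and 1.61, 1.67 and 1.63 for Rsad2 at 0, 2 and 12 weeks. A value of at least 1.5 was reached by 5, 4 and 5 of the members tested (10, 10 and 9, Usp18 being too low at 12 weeks), and by 2.64%, 2.22% and 3.44% of all genes tested in the 3 libraries. Ifitm3 passed it too (1.57, 1.56 and 1.53), at a much higher mean. Ifit2, Irf7, Oasl2, Usp18 and Bst2 stayed under it throughout in ECs. Values outside ECs could be higher, as for Ifit3 in FBs at 12 weeks (4.67) and Rsad2 in healthy mural cells (4.47). In healthy FBs only Ifit1 passed 1.5 (2.34), beside 2.83% of all genes tested.

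ECs that held 3 or more core members before thinning carried 74.0% of Ifit1, 82.7% of Ifit3, 52.0% of Isg15 and 53.9% of Rsad2 UMIs in the healthy library. At 12 weeks they carried 66.7%, 76.9%, 52.0% and 22.2%. Such cells made up 17.1% of healthy ECs but 6.67% in heart failure, and they were chosen by these genes in libraries of unequal depth, so nothing is read from the difference.

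The 60 healthy interferon-high ECs were close to the others in depth and mitochondrial share. Their median was 1959.5 UMIs before thinning against 2249 in the other ECs, their median mitochondrial share 2.17% against 2.17%, and none of them was called a doublet. They carried 24.4% of the core UMIs of ECs above 1000 UMIs, at 4282 CPM against 734 CPM. The core members picked these cells, so this share and this level are built in. EC markers summed to 5363 CPM in them and 5480 CPM in the rest, those of macrophages to 112 and 94.0 CPM, and those of cardiomyocytes to 585 and 643 CPM. The 8 markers of neural cells summed higher in them, at 283 and 120 CPM (2.37-fold, 1.71 to 3.20), with a 2-week ratio of 1.42 (0.94 to 2.05). In the healthy library only 2 of these markers had at least 20 UMIs, and Art3 alone had an interval above 1. Art3 was also found in 14.0% of gated cells outside the neural class. Erythroid markers were lower, at 11.8 and 103 CPM. The part of these neural and erythroid transcripts in the result was not tested.

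Most other type I interferon-stimulated genes, none of them a core member, were higher in these cells. Of 28 other type I interferon-stimulated genes with at least 20 UMIs in both the healthy and the 2-week ECs, 21 had ratios of high to other ECs with intervals above 1 in both libraries, and none had one below 1 in both. By the same rule 0.901% of all 8327 genes outside the core members were above 1 in both libraries and 0.504% were below. In the healthy library Ifit3b stood at 100 and 9.46 CPM (10.6-fold, 5.47 to 20.0), Oasl1 at 41.3 and 5.55 CPM (7.45-fold), Cmpk2, a nucleotide kinase next to Rsad2, at 171 and 32.0 CPM (5.36-fold, 3.41 to 8.18) and Rtp4 at 236 and 94.3 CPM (2.50-fold). Ifit3b is the near-identical copy of the core member Ifit3, so its ratio may be partly built in. The same may hold for Oasl1, a relative of the core member Oasl2. Ifitm2 was at 1134 and 1220 CPM, with an interval of the ratio that included 1 (0.80 to 1.07).

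Ifitm3 and Bst2, the 2 members outside the rule for these cells, were higher as well, by 1.59-fold (1.46 to 1.72) and 1.74-fold (1.46 to 2.05), and at 2 weeks by 1.69-fold and 2.06-fold. Of 14 genes that are mainly induced by interferon-gamma, 10 were above 1 in both libraries (0.901% of all genes), such as Iigp1 (1199 and 517 CPM) and Gbp7 (307 and 127 CPM), GTPases that attack pathogen vacuoles, whereas the chemokine Cxcl10 had intervals that included 1. Of 10 genes of MHC class I presentation, 7 were above 1 in both (B2m, H2-D1, H2-Q4, Psmb8, Psmb9, Tap1 and Tapbp), and the list summed to ratios of 1.27 and 1.28. Irf9, a DNA-binding factor of the pathway, was higher (2.15-fold, 1.26 to 3.47), as was the feedback inhibitor Socs1 (2.55-fold, 1.55 to 4.00), while Jak1 was at 171 and 174 CPM. The interferon receptor genes summed to 508 and 503 CPM in the healthy library (ratio 1.01, 0.80 to 1.25).

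Ranked across all 3114 ECs by correlation with the mean of the core members, after each library had been centred, the 8 core members took the first 8 places of 10493 genes. They enter that mean, so their own places are partly built in. Among the nearest other genes were Ifit3b (r = 0.31), Rtp4, Iigp1, Mndal, Ifi203, Ifi44, Gbp7, Cmpk2 and Gbp3 (r = 0.19). The place of Ifit3b may be partly built in too, since it is a near-identical copy of Ifit3. Ifitm3 ranked 17 (r = 0.20) and Bst2 ranked 22 (r = 0.18). Cells of a library share its depth and these values are a description.

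Interferon-high ECs were poor in markers of some vessel types. Venous markers (Nr2f2, Vwf, Selp, Ackr1 and Vcam1) summed to 41.3 CPM in the healthy high cells and 363 CPM in the other ECs, a ratio of 0.11 (0.05 to 0.24), and at 2 weeks the ratio was 0.38 (0.23 to 0.59). Endocardial markers gave 0.11 (0.04 to 0.24) and 0.16 (0.03 to 0.46). Capillary markers gave 1.03 and 1.10, and arterial markers 1.19 and 0.77. The genes of dissociation stress, among them Fos and Hspa1a, were at 1.18 (1.14 to 1.21) and 1.05, and their part in the result was not tested.

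ECs were therefore grouped by vessel type, a grouping chosen after values were seen, with a cell counted to each type of which it held at least 2 markers, so that a cell could enter more than 1 type. In the healthy library this gave 625 capillary, 173 arterial, 106 venous, 42 endocardial and 27 lymphatic marker-bearing ECs. Rsad2 was graded across them, at 271 CPM in capillary (250 to 294), 198 in arterial (166 to 233) and 65.0 in venous ECs (43.2 to 93.9), with 1 UMI each in the endocardial (6.31 CPM) and lymphatic (9.73 CPM) cells. Capillary ECs exceeded the remaining ECs 2.29-fold in health (1.89 to 2.78), 1.86-fold in adaptive hypertrophy (1.58 to 2.20) and 2.35-fold in heart failure (1.69 to 3.31). For venous ECs the ratio to remaining ECs was 0.27 (0.18 to 0.39), 0.20 (0.11 to 0.33) and 0.0713 (0.00179 to 0.403), the last from 1 UMI in 13 cells. With at least 3 markers asked for instead, the healthy capillary ratio was 1.24 (1.07 to 1.44) and those at 2 and 12 weeks 1.84 and 2.02, and the venous ratios were 0.40, 0.0346 and 0.14.

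Isg15 varied less, at 429 CPM in capillary, 463 in arterial, 315 in venous, 196 in endocardial and 146 in lymphatic ECs. Ifitm3 varied little, between 1723 and 2462 CPM over the 5 types. Bst2 was at 564, 598, 392, 322 and 448 CPM. Interferon-high cells made up 5.28% of capillary ECs (3.66 to 7.34), 5.78% of arterial ECs and 1 of 106 venous ECs (0.94%, 0.02 to 5.14), with 1 of 27 lymphatic and none of 42 endocardial ECs.

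The 12-week difference in Rsad2 was present within capillary ECs. There it was at 271, 282 and 500 CPM (12-week ratio 1.84, 1.47 to 2.28). In arterial ECs it was at 198, 215 and 158 CPM (12-week ratio 0.80, 0.49 to 1.26). Isg15 in capillary ECs was at 429, 385 and 242 CPM (12-week ratio 0.57, 0.41 to 0.76), Irf7 at 65.7, 110 and 85.8 CPM, and Ifit3 at 29.6, 59.2 and 60.6 CPM. In capillary ECs these 4 genes kept the order of libraries seen over all ECs. The summed core members were at 1012 and 1050 CPM in capillary ECs at 0 and 12 weeks (ratio 1.04, 0.90 to 1.20). In arterial ECs the sum was lower at 12 weeks, at 974 and 561 CPM (0.58, 0.45 to 0.73), with Isg15 at 463 and 166 CPM (0.36, 0.22 to 0.55). In venous ECs it was at 596 and 205 CPM (0.34, 0.15 to 0.69), the last from 13 cells. At 2 weeks the ratio of the sum was 1.03 in capillary, 1.03 in arterial and 1.11 in venous ECs.

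**Figure D5:**
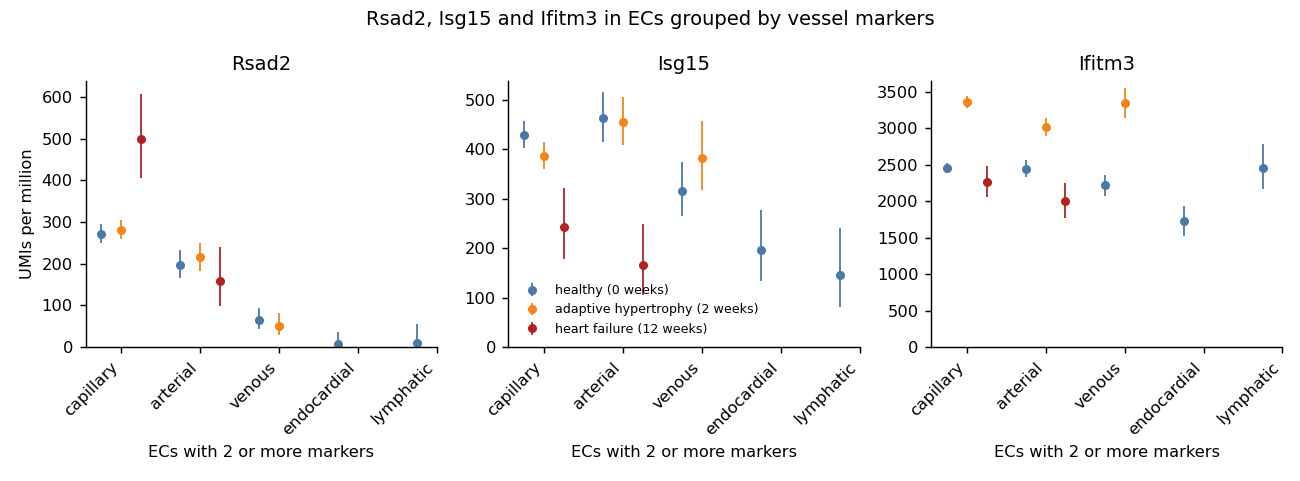
Level of Rsad2, Isg15 and Ifitm3 in ECs that held at least 2 markers of a vessel type, by phase, for types with at least 20 cells, with exact 95% Poisson intervals. Rsad2 falls off from capillary to venous, endocardial and lymphatic ECs and reaches 500 CPM in capillary ECs at 12 weeks, while Ifitm3 lies between 1723 and 2462 CPM over the healthy types.

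The rest of the pathway was read from gene lists. Of 13 interferon genes, 12 had no UMI in ECs, FBs, mural cells, macrophages or B cells of any library, and Ifnb1 had 1 UMI, in a macrophage at 2 weeks. The receptor genes were measured in every class, with Ifnar1 at 34.0, 33.9 and 39.9 CPM and Ifnar2 at 97.1, 96.4 and 122 CPM in ECs, and no receptor gene was past 2-fold in ECs or FBs. Among the 6 genes of signal transduction, only the kinase Tyk2 was past 2-fold in ECs at 2 weeks (4.64 and 10.7 CPM) and none was at 12 weeks.

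In ECs, 1 of 28 other type I interferon-stimulated genes was past 2-fold upwards at 2 weeks and none downwards. It was the synthetase Oas2 (9.28 and 33.0 CPM, ratio 3.56, 2.36 to 5.52). By the same rule 3.19% of all genes were higher and 5.11% lower. At 12 weeks Ifit3b (14.2 and 39.9 CPM) and Oas1a (6.80 and 25.2 CPM) were past it upwards and Ifi27l2a (129 and 42.0 CPM) downwards. Of all genes, 7.95% were higher and 7.81% lower at that time. The upward counts of this list were near the shares of all genes. Of 14 genes biased to interferon-gamma, Tgtp1 was higher at 12 weeks (8.04 and 23.1 CPM), and Cxcl10 (74.5 and 16.8 CPM) and Gbp3 (58.8 and 18.9 CPM) were lower. Irf8, a factor best known from myeloid and B cells, was at 65.6, 33.0 and 2.10 CPM in ECs, from 212, 111 and 1 UMI, and the feedback inhibitor Socs3 at 975, 703 and 361 CPM. Of the MHC class I genes, H2-K1 (682, 1394 and 1056 CPM) passed 2-fold at 2 weeks and H2-Q4 (203, 344 and 466 CPM) at 12 weeks, genes whose reads can be shared with other class I genes. Nlrc5, their activator, and Zbp1, a nucleic acid sensor, also passed at 2 weeks, from 5 and 21 UMIs and from 13 and 32 UMIs.

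In FBs more genes of the wider list passed upwards than downwards. At 2 weeks 4 of 25 other type I genes were past 2-fold upwards (Parp9, Dtx3l, Rtp4 and Ifit3b) and 1 downwards (Ifi35), beside the 8.75% and 12.4% of all genes, and at 12 weeks 5 upwards (Ifit3b, Dtx3l, Ifitm1, Parp9 and Parp12) and 2 downwards (Ifi204 and Ifi27l2a), beside 5.68% and 6.25%. Parp9 and its partner Dtx3l, a ubiquitin ligase, were at 11, 37.1 and 27.0 CPM and at 6.70, 22.3 and 19.1 CPM. Of 8 genes biased to interferon-gamma, Cxcl10 (9.09, 26.0 and 28.6 CPM) and Irgm2 (7.42, 22.3 and 17.5 CPM) were past 2-fold at both times. Of 10 genes of MHC class I presentation none passed at 2 weeks and 5 did at 12 weeks, led by H2-Q4 (57.4, 66.8 and 257 CPM). Of the genes of signal transduction, Tyk2 passed at 2 weeks, from 4 UMIs. In mural cells more genes of the list passed downwards than upwards, as was so for all genes tested. At 2 weeks 7 of 21 other type I genes were past 2-fold downwards (Cmpk2, Ifitm1, Eif2ak2, Herc6, Ifi27l2a, Samd9l and Rtp4) and Lgals9 upwards, beside 10.9% and 5.12% of all genes. At 12 weeks 5 of 20 were past it downwards (Herc6, Samd9l, Trim30a, Eif2ak2 and Ifi203) and Parp9 upwards, beside 20% and 8.23%. The downward count at 12 weeks was thus near the share of all genes. Of 9 genes biased to interferon-gamma 2 passed downwards at 2 weeks and 4 at 12 weeks. In macrophages, 1 of 26 other type I genes passed upwards at 2 weeks (Herc6) and 4 downwards, beside 9.57% and 12.9% of all genes. At 12 weeks 2 passed in each direction, beside 10.9% higher and 15% lower. Most of the list therefore did not pass beside Isg15, Irf7 and Rsad2, and no count was far above the share of all genes.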

How the data were processed

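The deposited tables hold raw UMI counts per gene and cell, which the authors made with Cell Ranger 2.0.0 on mm10 per the labels' processing notes, 1 table per phase. The counts were used as deposited. Cells with under 200 genes were left out (8, 8 and 10 cells), which kept 3892, 2231 and 792 cells with 12287823, 4465929 and 1712728 UMIs. The libraries shared between 1 and 5 cell barcodes pairwise. A cell took the class of the largest of 7 marker sums, 8 markers each (6 for B cells and 7 for T/NK cells, since Ighd, Ighm and Trac matched no symbol of the tables), given at least 3 UMIs, 2 markers and 60% of its marker UMIs, and otherwise stayed ungated. Doublets called by Scrublet (35, 2 and 5) were kept and left out as an alternative. Levels are pooled CPM with exact Poisson intervals, ratios have exact conditional binomial intervals and shares Clopper-Pearson intervals, all at 95%. A count of 0 was read as up to 3 counts. UMIs correct for PCR copies, and intervals cover counting error only. No test between phases was possible with 1 library each. Thinning was seeded. Scripts were tested on simulated data and used Python 3.11.15, numpy 2.4.6, scipy 1.17.1, pandas 2.3.3 and scanpy 1.11.5. Members and gene lists were chosen with earlier results of these data known. Genes named beside the members are list genes past 2-fold, those most like the core members, and genes of the interferon-high cells, and a few were named after their values were seen. A gene of the pathway lists is not reported here.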

Additional observations from a re-analysis of the deposited data

Results flagged for a closer look

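Cells outside the classes described above also held the core members. In ungated cells their sum was 705 CPM at 2 weeks and 464 CPM in the healthy library, a ratio of 1.52 (1.28 to 1.80) over 192 and 230 cells. These ungated cells differed in content, with capillary EC markers at 9578 and 6330 CPM and granulocyte markers at 3297 and 6200 CPM. The 8 EC markers were at 1659 and 2510 CPM, and median depth was 937 and 2589.5 UMIs. The part of this content in the result was not tested. In the neural class the core members summed to 734 CPM at 12 weeks and 265 CPM in the healthy library, a ratio of 2.77 (1.41 to 5.31) from 17 and 26 UMIs in 14 and 47 cells. At 12 weeks the summed core members lay above healthy in FBs (ratio 1.68) and below it in mural cells (ratio 0.42), opposite directions whose difference was not tested. Under gates made of 9 of the marker genes that the study names, those of ECs, FBs and mural cells, these ratios were 1.22 and 0.96.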

How the results depend on the processing

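No paired analysis was possible because each phase is 1 library, and for the same reason no replicate could be left out. Of 142 alternative values of the summed core members, 123 moved by less than the counting interval. The exceptions among ratios to healthy were as follows. In ECs at 2 weeks it was 1.12 with gates of 9 of the study's markers, 0.98 as a mean over cells of counts per 10000 UMIs, 0.98 thinned and 1.13 without Isg15. In ECs at 12 weeks it was 0.79 thinned, 1.10 without cells holding 3 or more core members, 1.20 without Isg15 and 0.78 without Rsad2. In FBs at 2 weeks it was 3.02 thinned and 1.49 without such cells, and at 12 weeks 1.22 with the study's markers and 1.13 without such cells. In mural cells at 2 weeks it was 1.12 at a gate purity of 80%, 1.16 with the study's markers, 1.19 without such cells and 0.47 without Isg15, and at 12 weeks 0.96 with the study's markers and 0.22 without Isg15. In macrophages at 2 weeks it was 1.71 thinned.

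The share of interferon-high cells followed the rule by construction, in 27 of 117 values. Asking for 2 of 8 members gave 16.2%, 15.7% and 10.5% of ECs at 0, 2 and 12 weeks, 1.27% of healthy FBs, 4.55% of healthy mural cells and 1.64% and 5.56% of macrophages at 0 and 2 weeks. Asking for 4 gave 1.47%, 1.54% and 0.50% of ECs and 0.158% and 1.41% of FBs at 0 and 2 weeks. Unthinned cells gave 17.1%, 12.1% and 6.67% of ECs, 2.14% and 5.67% of FBs at 0 and 12 weeks, 6.95% of healthy mural cells and 1.52% and 4.31% of macrophages at 0 and 2 weeks. Thinning to 500 UMIs gave 1.84% and 1.39% of ECs and 0.158% and 1.01% of FBs at 0 and 2 weeks, 0.267% of healthy mural cells and 0.117% of healthy macrophages, and a gate purity of 80% gave 0.417% of healthy mural cells.

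With 10 CPM added, 3 members passed 2-fold upwards in FBs at 2 weeks and 0 at 12 weeks, and in macrophages at 12 weeks 1 passed upwards and 0 downwards. With at least 50 UMIs asked for, 1 passed upwards there. Of 131 alternative values of single members, 120 stayed within the counting interval and 10 moved out of it, not all of them named here. The remaining 1 fell on the other side of 1. It was Ifitm3 in macrophages at 2 weeks, which turned to 0.991 as a mean over cells of counts per 10000 UMIs. All 6 alternative counts of members found more often beside other core members were within 1.5 times of the first, but in ECs at 12 weeks the members with intervals apart went from 0 of 8 to 4 of 8 in unthinned cells. Alternatives chosen after seeing the data moved Rsad2 by vessel type in 5 of 12 values. At least 3 markers gave 1.24 for healthy capillary ECs and 0.40 and 0.0346 for venous ECs at 0 and 2 weeks, and thinning gave 0.17 and 0 for venous ECs at 0 and 12 weeks. Without the cell with the most UMIs in each library, also chosen after seeing the data, the 8 ratios of the summed core members between phases stayed within their intervals, with 1.95 and 1.54 in FBs at 2 and 12 weeks, while Ifitm3 in macrophages at 12 weeks fell from 1.82 to 1.55. Where no cause is named, the cause was not tested. The TAC libraries held 36 to 116 mural cells and macrophages each.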
